A study of Rattus norvegicus with 9 samples.

Results

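The later steps of glycolysis and the export of lactate were followed through 10 gene names, Aldoa, Tpi1, Gapdh, Pgk1, Pgam1, Eno1, Pkm, Ldha, Slc16a1 and Slc16a3, in cultured rat vascular smooth muscle cells from the thoracic aorta. The members were the rows of the authors' table that carry one of these names. Of the 32792 genes in the table, 9 carry one, since no row is named Gapdh. Of these 9, 7 passed a filter on low values and were tested.

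CTSD cells were transfected to overexpress CTSD (cathepsin D, a protein-digesting enzyme of lysosomes) and were given AGEs. These advanced glycation end products are proteins altered by sugars and build up in diabetes. AGEs cells carried an empty vector and received AGEs. BSA cells carried the empty vector and received bovine serum albumin. AGEs were given at 200 µg/mL for 24 h, and all 3 groups were transfected cells with 3 libraries each. The study asked how AGEs and cathepsin D act on these cells, with glycolysis named in its title. The labels do not tell whether libraries of one group stem from different cultures, so the p-values cover a library-to-library spread that could be technical.

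In glycolysis, aldolase splits fructose 1,6-bisphosphate into triose phosphates, and the enzymes below it oxidise these, pass their phosphate to ADP and end at pyruvate. Lactate dehydrogenase turns pyruvate into lactate and so regenerates NAD+ for the oxidation step. Monocarboxylate transporters carry lactate and pyruvate across the plasma membrane together with a proton. Arterial smooth muscle is known for making much of its ATP this way even when oxygen is plentiful.

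Under AGEs, CTSD cells had more mRNA than AGEs cells for aldolase A, phosphoglycerate mutase and pyruvate kinase, by 1.11-, 1.29- and 1.20-fold in mean FPKM (fragments scaled to the length of the gene and to the library's assigned fragments). The first of these calls was lost when any 1 of 5 libraries was left out, with no filter and with median-of-ratios scaling, while those of Pgam1 and Pkm held in all alternatives run. The lactate transporter gene Slc16a1 went the other way and was at 0.661 of its AGEs level. The lactate dehydrogenase gene Ldha did not pass the test. In AGEs against BSA cells 1 member passed, Aldoa, which was 1.24-fold higher. Of all tested genes, 30.7% passed for CTSD against AGEs cells and 15% for AGEs against BSA cells. Tpi1 was listed at 0 in every library, and Slc16a3 held 3 fragments over all 9 libraries.

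The upstream sequences of 4 members that passed the test are shown because 3 rose and 1 fell in CTSD cells. They are the 250 bases before an annotated start in RefSeq (GRCr8), written 5′ to 3′ on the gene's strand. Capitals mark ACGTG or GCGTG on either strand (CACGT or CACGC when read on the strand shown), the core letters known for hypoxia-inducible factor sites. The window of Aldoa is that of the third of its RefSeq starts, chr1:190836778-190837027 on the minus strand. It is the only Aldoa window with a searched motif, and which start these cells use was not tested. Those of Pgam1 and Slc16a1 are chr1:250672902-250673151 and chr2:194812410-194812659, both on the plus strand. That of Pkm is chr8:68953385-68953634 on the plus strand.
Aldoa: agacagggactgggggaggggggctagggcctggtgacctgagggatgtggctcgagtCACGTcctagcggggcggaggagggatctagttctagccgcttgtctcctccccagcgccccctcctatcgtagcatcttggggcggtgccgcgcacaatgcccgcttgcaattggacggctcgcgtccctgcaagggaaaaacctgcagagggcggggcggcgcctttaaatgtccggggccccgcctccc
Pgam1: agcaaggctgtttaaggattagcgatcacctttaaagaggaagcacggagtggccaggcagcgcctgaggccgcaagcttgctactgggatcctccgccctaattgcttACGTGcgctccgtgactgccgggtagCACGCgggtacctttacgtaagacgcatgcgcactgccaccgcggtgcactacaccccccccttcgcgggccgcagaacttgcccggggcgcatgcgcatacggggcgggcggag
Pkm: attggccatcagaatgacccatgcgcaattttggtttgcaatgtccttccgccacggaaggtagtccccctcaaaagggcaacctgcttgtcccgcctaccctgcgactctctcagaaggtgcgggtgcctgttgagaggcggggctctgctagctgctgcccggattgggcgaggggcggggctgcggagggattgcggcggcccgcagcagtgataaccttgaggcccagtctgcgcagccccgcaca
Slc16a1: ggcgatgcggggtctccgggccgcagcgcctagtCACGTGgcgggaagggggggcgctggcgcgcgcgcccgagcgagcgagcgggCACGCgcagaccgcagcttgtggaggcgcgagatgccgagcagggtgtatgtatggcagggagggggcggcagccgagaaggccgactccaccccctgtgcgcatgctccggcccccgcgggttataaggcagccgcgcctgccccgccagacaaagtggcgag

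The Aldoa window held 1 match, 192 bases before the start, while the windows of the other 2 Aldoa starts held none of the motifs searched. Pgam1 held an ACGTG at 141 and a GCGTG at 115 bases before it. Pkm held neither motif. In Slc16a1 the capitals at 216 bases before the start spell CACGTG, which reads the same on both strands, overlaps ACGTG on each of them and is the E-box bound by MYC with MAX. Its GCGTG lay at 164 bases before the start. RefSeq gave upstream windows for 9 of the 10 names, with 12 starts; Pgk1 was not matched. ACGTG was in 5 of the 12 windows (1 each of Aldoa, Gapdh, Pgam1, Ldha and Slc16a1), against 16.6% of all 33469 RefSeq windows. GCGTG was in 6 windows (both of Eno1 and those of Gapdh, Pgam1, Ldha and Slc16a1), against 25.9%. CACGTG was in 2 windows (Ldha and Slc16a1), against 5.59%. GGGCGG, the GC box bound by SP1, was in 7 windows, against 30.5%. These shares were not compared by a test. The RefSeq windows were not matched to the members' windows for GC content, which was 54% to 74% in the latter. The 12 windows include 3 of Aldoa and 2 of Eno1, so they are not independent. A match is a string of letters and was not tested as a binding site. Ldha and Eno1 held matches and passed the test in no comparison.

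The libraries held 4492738 to 5342101 fragments assigned to genes. Ctsd, the overexpressed gene, had 195, 200 and 203 FPKM in CTSD cells, 13.2, 14.8 and 13.7 FPKM in AGEs cells, and 11.7, 14.6 and 12.9 FPKM in BSA cells. Its log2 difference between CTSD and AGEs cells was 3.75 (SE 0.08, adjusted p = 2.29e-09). AGEs library 3 had the lowest FPKM of its group for 5 of the 7 tested members (Aldoa, Pgk1, Pgam1, Eno1 and Ldha). Calls of members that turn on it are given with and without it. Zeros in this table need care, because B2m, Hprt1 and Fth1, which nearly every cell expresses, were listed at 0 in all libraries. Of 11 smooth muscle markers 6 were tested. Myh11, Cnn1, Des and Lmod1 had at most 9 fragments in any library, and Myocd was at 0. Their summed level was 241 to 246 FPKM in CTSD cells, 160 to 164 FPKM in AGEs cells and 182 to 203 FPKM in BSA cells, of which Tpm2, beta-tropomyosin, averaged 132 FPKM in CTSD cells, 80.2 FPKM in AGEs cells and 106 FPKM in BSA cells. Of 6 macrophage markers Ptprc, Adgre1, Lyz2 and Aif1 were at 0, and the list summed to 0.924 to 1.76 FPKM in CTSD cells, 0.143 to 0.971 FPKM in AGEs cells and 0.152 to 1.61 FPKM in BSA cells. Most of that was Cd68, a lysosomal membrane protein, with at most 10 fragments in a library and a log2 difference of 0.66 between CTSD and AGEs cells (adjusted p = 0.163). Endothelial markers summed to at most 0.136 FPKM, with Cdh5 and Kdr at 0, and fibroblast markers summed to 1.84 to 2.57 FPKM. Of the 6 smooth muscle markers tested, 4 were higher in CTSD than in AGEs cells and 1, Tpm2, was lower in AGEs than in BSA cells. These are 66.7% and 16.7% of the 6, against 30.7% and 15% of all tested genes. The marker lists were chosen with earlier results of these data known. Acta2, smooth muscle actin, averaged 22.8 ± 1.73 FPKM in CTSD cells, 8.25 ± 0.398 FPKM in AGEs cells and 8.45 ± 1.67 FPKM in BSA cells (SD, n = 3 each). The part of these markers in the results was not tested. In bulk RNA, fewer cells of a kind and less RNA per cell cannot be told apart.

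The 9 rows together took 0.885% to 0.894% of assigned fragments in CTSD cells, 0.761% to 0.828% in AGEs cells and 0.745% to 0.774% in BSA cells. The CTSD libraries lay above all others, while AGEs library 3 lay inside the BSA range. Most of these fragments came from Aldoa and Pgk1, with 18323 and 17826 of 46741 in CTSD library 1, so the share mainly follows these genes. Levels among the rows of the tested members spanned about 2 orders of magnitude. The level of a row need not be that of all its transcripts. The Pkm row, for example, held 38.5% to 40.4% of the fragments of Pkm and 2 rows described as like it. The chromosome 4 row described as glyceraldehyde-3-phosphate dehydrogenase is not a member and was left out of the order. In each group the order by mean FPKM was Pgk1, Aldoa, Pkm, Eno1 and Pgam1, and no neighbours in this order overlapped within a group. Below Pgam1, CTSD cells had Ldha above Slc16a1 without overlap. AGEs cells had Slc16a1 above Ldha, also without overlap. BSA cells had the same order, but there the ranges overlapped.

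**Figure D1:**
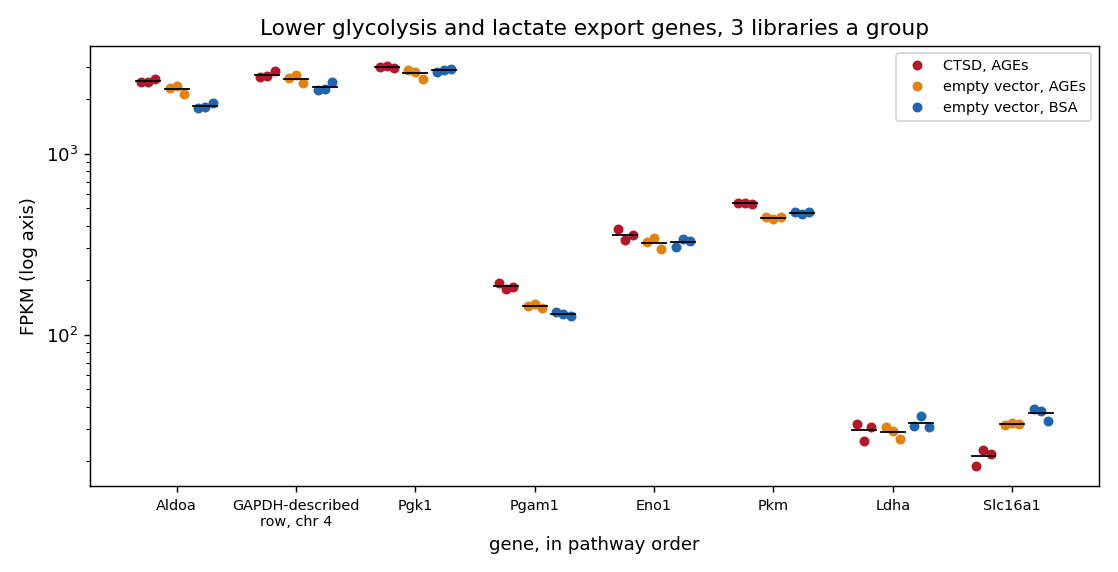
FPKM (log axis) of the 7 tested members and of the chromosome 4 row described as glyceraldehyde-3-phosphate dehydrogenase, with 1 point per library in CTSD, AGEs and BSA cells (n = 3 each) and a bar at each group mean. Pgk1 and Aldoa lie at 1781 FPKM or more in every library, and Slc16a1 is lowest in the 3 CTSD libraries.

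Aldoa (ENSRNOG00000052802, chromosome 1, 198228387 to 198233588) encodes aldolase A. Its level was 2498, 2484 and 2582 FPKM in CTSD cells, 2305, 2374 and 2147 FPKM in AGEs cells, and 1781, 1802 and 1903 FPKM in BSA cells. The 3 groups did not overlap, with CTSD cells highest and BSA cells lowest. Between CTSD and AGEs cells the log2 difference was 0.15 (SE 0.04, adjusted p = 0.0269). That call was narrow: without AGEs library 3 the difference was 0.11 (adjusted p = 0.0601). It was also lost without CTSD library 1, 2 or 3 (adjusted p = 0.0546, 0.0534 and 0.0973), without AGEs library 1 (0.0534), and with median-of-ratios scaling, where the difference was 0.09 (0.249). Between AGEs and BSA cells the log2 difference was 0.31 (SE 0.04, adjusted p = 0.0017), and Aldoa passed in every alternative run. Between CTSD and BSA cells it was 0.46 (SE 0.04, adjusted p = 7.71e-05), a ratio of 1.38.

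Tpi1 (ENSRNOG00000015290, chromosome 4, 157328379 to 157331905) encodes triosephosphate isomerase, which interconverts both triose phosphates. It was listed at 0 in all 9 libraries. A second row described as triosephosphate isomerase-like, LOC100911515, was also at 0. The Tpi1 row overlaps the row LOC100911548, and what that did to its count was not tested. Since other widely expressed genes are at 0 in this table, no level can be read for this step.

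Glyceraldehyde-3-phosphate dehydrogenase makes NADH and carries out the oxidation step. No row carries the name Gapdh, but 2 rows named LOC108351137 are described as this enzyme. The row on chromosome 4 (ENSRNOG00000018630, 157676595 to 157679962) lies between Iffo1 and Ncapd2, the same neighbours that Gapdh has in RefSeq GRCr8. It had 2653, 2688 and 2867 FPKM in CTSD cells, 2628, 2706 and 2458 FPKM in AGEs cells, and 2241, 2288 and 2485 FPKM in BSA cells. CTSD and AGEs cells overlapped, with a log2 difference of 0.08 (adjusted p = 0.312; 0.0353 after quantile normalization). AGEs and BSA cells overlapped at 1 library each, with a log2 difference of 0.15 (adjusted p = 0.0757). This last value passed without AGEs library 3 (0.0273), without BSA library 3 (0.0453), with median-of-ratios scaling (0.22, adjusted p = 0.034) and with voom on recovered fragments (0.0203). CTSD cells lay above BSA cells without overlap, by 0.23 (adjusted p = 0.00809), a call lost with quantile normalization (0.0563). The other row, on chromosome 5 (ENSRNOG00000030963), had 13.7 to 24.0 FPKM and no call in any comparison.

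Pgk1 (ENSRNOG00000058249, chromosome X, 77263359 to 77279367) encodes phosphoglycerate kinase, the first of these steps to make ATP. It was the highest member, at 3016, 3055 and 2974 FPKM in CTSD cells, 2909, 2842 and 2603 FPKM in AGEs cells, and 2843, 2907 and 2940 FPKM in BSA cells. The CTSD libraries lay above all others, but the log2 difference to AGEs cells, 0.12 (95% interval 0.02 to 0.21), missed the threshold (adjusted p = 0.0638). It passed without AGEs library 1 (0.0411). AGEs and BSA cells overlapped, with a log2 difference of -0.06 (adjusted p = 0.401) that turned positive under median-of-ratios scaling. Between CTSD and BSA cells it was 0.06 (adjusted p = 0.33), and turned negative with quantile normalization. Because Pgk1 stayed near one level while Aldoa did not, the ratio of Aldoa to Pgk1 FPKM was 0.837 ± 0.0285 in CTSD cells, 0.818 ± 0.0225 in AGEs cells and 0.631 ± 0.0142 in BSA cells (SD, n = 3 each).

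Pgam1 (ENSRNOG00000050585, chromosome 1, 261158261 to 261165808) encodes the phosphoglycerate mutase that moves the phosphate from carbon 3 to carbon 2. It had 192.7, 178.6 and 184.6 FPKM in CTSD cells, 143.9, 148.4 and 139.9 FPKM in AGEs cells, and 133.7, 130.2 and 126.2 FPKM in BSA cells. The 3 groups did not overlap, in the same order as for Aldoa. Pgam1 was higher in CTSD cells than in AGEs cells by 0.36 (log2, SE 0.05, adjusted p = 0.000288). Between AGEs and BSA cells it differed by 0.15, which missed the threshold (adjusted p = 0.0598) and passed without AGEs library 3, at 0.17 (adjusted p = 0.0444). CTSD cells lay above BSA cells by 0.51 (SE 0.05, adjusted p = 6.54e-05), a ratio of 1.42.

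Eno1 (ENSRNOG00000017895, chromosome 5, 167288223 to 167299609) encodes alpha-enolase, which forms phosphoenolpyruvate. It had 383, 333 and 357 FPKM in CTSD cells, 325, 341 and 296 FPKM in AGEs cells, and 307, 340 and 329 FPKM in BSA cells. Each pair of groups overlapped. The log2 difference between CTSD and AGEs cells was 0.16 (95% interval 0.01 to 0.31, adjusted p = 0.1). It was -0.02 between AGEs and BSA cells (adjusted p = 0.868), with a sign that changed under 3 alternatives, and 0.14 between CTSD and BSA cells (adjusted p = 0.142).

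Pkm (ENSRNOG00000011329, chromosome 8, 64481172 to 64502722) encodes the muscle pyruvate kinase, the last step to pyruvate and the second to make ATP. A gene total cannot separate its M1 and M2 splice forms. It had 533.9, 536.7 and 527.2 FPKM in CTSD cells, 447.5, 435.6 and 446.8 FPKM in AGEs cells, and 478.7, 463.1 and 478.3 FPKM in BSA cells. CTSD cells were highest and AGEs cells lowest, with no overlap between any 2 groups. Pkm was higher in CTSD than in AGEs cells by 0.26 (log2, SE 0.03, adjusted p = 0.000261). AGEs cells differed from BSA cells by -0.09, which missed the threshold (adjusted p = 0.087). CTSD cells were higher than BSA cells by 0.17 (SE 0.03, adjusted p = 0.00382), a ratio of 1.13.

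Ldha (ENSRNOG00000013009, chromosome 1, 102900286 to 102909707) encodes the A subunit of lactate dehydrogenase, the form known for turning pyruvate into lactate. It rested on 207 to 275 fragments per library. It had 32.26, 25.82 and 30.97 FPKM in CTSD cells, 30.86, 29.29 and 26.44 FPKM in AGEs cells, and 31.41, 35.42 and 31.02 FPKM in BSA cells. CTSD and AGEs cells overlapped, and the log2 difference of 0.04 (95% interval -0.18 to 0.25, adjusted p = 0.824) changed sign under 4 alternatives. AGEs cells lay below BSA cells without overlap, by -0.17 (95% interval -0.39 to 0.05, adjusted p = 0.275). Between CTSD and BSA cells the difference was -0.14 (adjusted p = 0.319).

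Slc16a1 (ENSRNOG00000019996, chromosome 2, 207108552 to 207128554) encodes monocarboxylate transporter 1, which carries lactate in or out of the cell along its gradient. It had 18.76, 23.11 and 21.95 FPKM in CTSD cells, 31.87, 32.74 and 31.99 FPKM in AGEs cells, and 38.89, 37.78 and 33.56 FPKM in BSA cells, from 244 to 512 fragments per library. The groups did not overlap, and CTSD cells were lowest. Slc16a1 was lower in CTSD than in AGEs cells by a log2 difference of -0.58 (SE 0.09, 95% interval -0.78 to -0.39, adjusted p = 0.000733). AGEs cells differed from BSA cells by -0.18 (95% interval -0.38 to 0.01, adjusted p = 0.195). Between CTSD and BSA cells the difference was -0.76 (SE 0.09, adjusted p = 0.000207), a ratio of 0.579. The ratio of Ldha to Slc16a1 FPKM was 1.72, 1.12 and 1.41 in CTSD cells, 0.968, 0.895 and 0.827 in AGEs cells, and 0.807, 0.937 and 0.924 in BSA cells.

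Slc16a3 (ENSRNOG00000036677, chromosome 10, 110138586 to 110148358) encodes monocarboxylate transporter 4, known for lactate export from strongly glycolytic cells. It was at 0 in all CTSD libraries, had 1 fragment each in AGEs libraries 2 and 3 (0.0963 and 0.0892 FPKM) and 1 fragment in BSA library 1 (0.0900 FPKM). It was not tested. Basigin (Bsg) and embigin (Emb), the membrane partners that bring these transporters to the cell surface, were listed at 0 in every library.

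**Figure D2:**
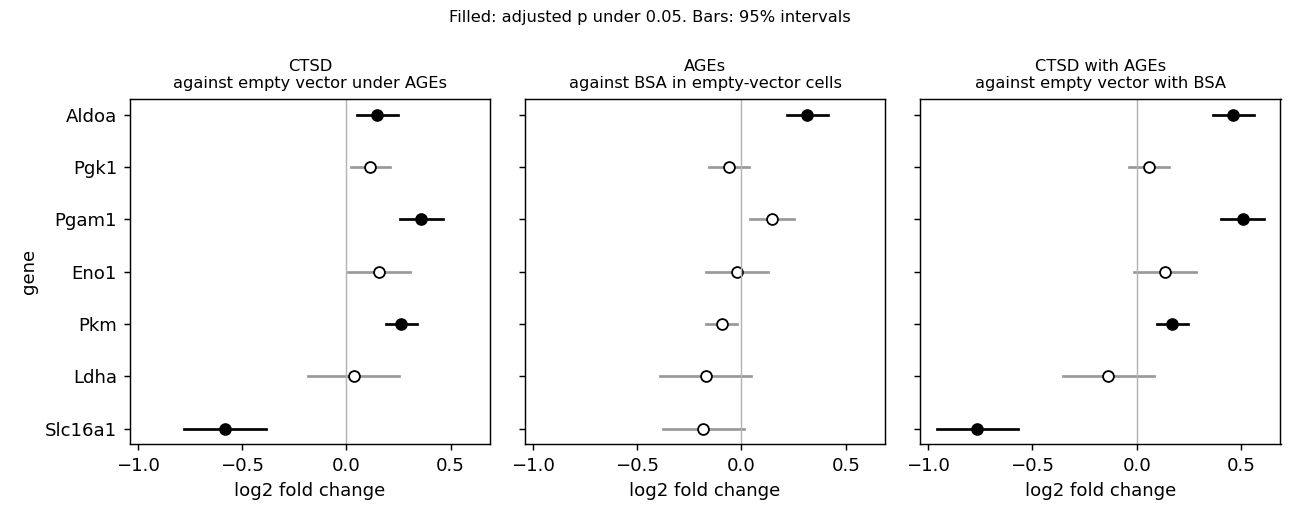
Log2 fold changes of the tested members, with 95% intervals, for CTSD against AGEs cells, AGEs against BSA cells and CTSD against BSA cells; filled points have an adjusted p under 0.05. Pgam1, Pkm and Aldoa lie above 0 and Slc16a1 below 0 in the CTSD comparison, while Aldoa alone is filled for AGEs against BSA.

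Of the 7 tested members, 3 were higher and 1 was lower in CTSD than in AGEs cells, with a median log2 difference of 0.15. The Aldoa call among them was lost when any 1 of 5 libraries was left out, with no filter (adjusted p = 0.0552) and with median-of-ratios scaling (0.249). Of all 8532 genes tested, 30.7% passed in this comparison (18.6% higher and 12% lower), with a median of 0.05. Of all calls 60.8% were higher, against 48.2% with median-of-ratios scaling. In AGEs against BSA cells 1 of 7 members passed, against 15% of all genes (6.05% higher and 8.92% lower). The members' median was -0.06 there, the same as over all genes, and 40.4% of all calls were higher, against 59.7% with median-of-ratios and 51.7% with quantile scaling. In CTSD against BSA cells 3 members were higher and 1 was lower, against 32.6% of all genes, with medians of 0.14 for the members and 0.00 for all genes. The members were chosen with earlier results of these data known, so these counts are a description only. The first 2 comparisons share the AGEs libraries, so a high or low AGEs value moves a gene in opposite directions in them.

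For several members the table also has rows that it describes as like the same enzyme or as its retrogene, called copies here from their descriptions, and the authors' counting could split fragments between a gene and such rows. The copies matter most for Pkm, whose row held only 38.5% to 40.4% of the fragments of Pkm and 2 rows on chromosome 20. LOC100364062, a Pkm pseudogene in RefSeq, had 430, 446 and 444 FPKM in CTSD cells, 354, 352 and 360 FPKM in AGEs cells, and 380, 389 and 390.5 FPKM in BSA cells. AABR07044711.1 had 366, 389 and 385 FPKM in CTSD cells, 305, 324 and 293 FPKM in AGEs cells, and 329, 322 and 344 FPKM in BSA cells. By mean, both rows repeated the order of the Pkm row, highest in CTSD and lowest in AGEs cells. Both were higher in CTSD than in AGEs cells by 0.31 (adjusted p = 0.000132 for LOC100364062 and 0.00084 for AABR07044711.1). LOC100364062 was lower in AGEs than in BSA cells by a log2 difference of -0.12 (adjusted p = 0.0399). That call was lost with the replicate block (0.0573), with median-of-ratios scaling (0.35) and with only the 2 groups compared (0.0828). Leaving out any of 7 libraries lost it too (CTSD 2 and 3, AGEs 1 and 2, BSA 1, 2 and 3, with adjusted p up to 0.115). With fragments summed over the 3 rows, Pkm was higher in CTSD than in AGEs cells by 0.29 (adjusted p = 0.000108). Summed, AGEs cells were lower than BSA cells by a log2 difference of -0.11 (adjusted p = 0.0463).

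For Aldoa the main row held 98.0% to 98.4% of fragments, and its retrogene Aldoart2 averaged 37.3 ± 3.73 FPKM in CTSD cells, 32.7 ± 2.89 FPKM in AGEs cells and 27.5 ± 2.80 FPKM in BSA cells (SD, n = 3 each). For Pgk1 it held 86.4% to 87.0%, beside 1 copy on chromosome 2 (AABR07008097.1) with no call. For Eno1 it held 65.8% to 69.8%, beside RGD1563294 on chromosome 4, with no call, and the low LOC685431. For Ldha it held at least 99.6%. Summing copies left the CTSD calls as they were, at 0.15 for Aldoa (adjusted p = 0.0268), 0.11 for Pgk1 (0.0656) and 0.13 for Eno1 (0.136). Whether copy rows and gene rows took fragments from the same transcripts was not tested, so they are not counted as independent measurements.

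**Figure D3:**
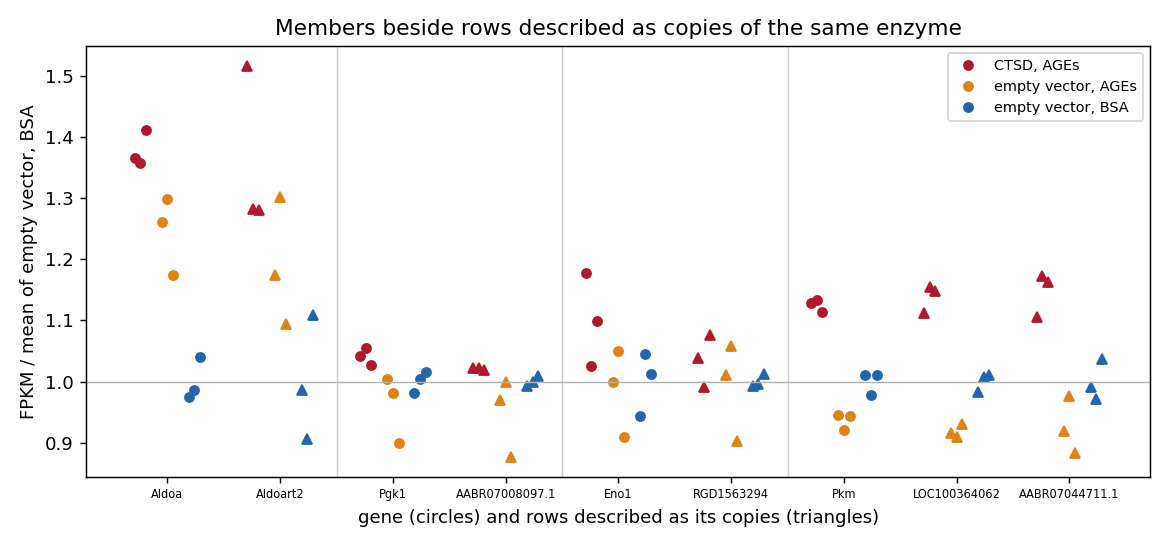
FPKM of Aldoa, Pgk1, Eno1 and Pkm (circles) and rows described as their copies (triangles), each divided by its mean in BSA cells, with 1 point per library (n = 3 per group). All 3 Pkm rows have their CTSD libraries above and their AGEs libraries below the BSA mean.

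Of 21 rows for sister isozymes and partners of these steps, 12 were listed at 0 in all libraries, where no level can be read, among them Pgk2, Pgam2, Pklr, Ldhb and Ldhc, and 6 were tested. Eno3, the muscle beta-enolase, rested on only 21 to 52 fragments per library. It averaged 6.79 ± 0.141 FPKM in CTSD cells, 3.90 ± 0.879 FPKM in AGEs cells and 4.61 ± 0.469 FPKM in BSA cells (SD, n = 3 each). It was higher in CTSD than in AGEs cells by 0.69 (log2, SE 0.15, adjusted p = 0.00609). Eno3 was the 1 call of this list there, 16.7% of those tested against 30.7% of all tested genes. None of the 6 passed in AGEs against BSA cells, where 15% of all tested genes did.

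Upstream of aldolase, 12 of 19 glucose uptake and upper glycolysis rows were tested. In CTSD against AGEs cells 3 were higher and 1 was lower (median log2 difference 0.21). That is 33.3% of those tested, near the 30.7% of all tested genes. Pfkm, the muscle phosphofructokinase, averaged 62.3 ± 1.49 FPKM in CTSD cells, against 46.5 ± 3.02 FPKM in AGEs cells (0.42, adjusted p = 0.000545). Pfkl, the liver phosphofructokinase, averaged 70.5 ± 2.31 FPKM in CTSD cells, against 57.3 ± 3.64 FPKM in AGEs cells (0.29, adjusted p = 0.00459). Adpgk, an ADP-dependent glucokinase, was higher by 0.28 (adjusted p = 0.0126), a call lost without AGEs library 1 (0.0524). Slc2a1, the glucose transporter GLUT1, was the lower one, at 109 ± 4.66 FPKM in CTSD cells, against 129 ± 1.40 FPKM in AGEs cells (-0.24, adjusted p = 0.00384). The transporters at the entry and the exit of the pathway, Slc2a1 and Slc16a1, were thus both lower in CTSD than in AGEs cells. Against BSA cells they differed. Slc2a1 was higher in CTSD than in BSA cells by 0.19 (adjusted p = 0.0137), a call lost without CTSD library 2 (0.0561) or BSA library 2 (0.0509). Slc16a1 was lower in CTSD than in BSA cells, with a log2 difference of -0.76 (adjusted p = 0.000207). Between AGEs and BSA cells Slc2a1 was higher by 0.43 (adjusted p = 0.000523), Pfkm was lower with a log2 difference of -0.39 (0.00263), and Hk1, hexokinase 1, was higher by 0.21 (0.0406). The Hk1 call was lost with the replicate block (0.0618), with only the 2 groups compared (0.0828) and when any 1 of the 9 libraries was left out (adjusted p up to 0.128).

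Among genes that decide where pyruvate goes, 23 were tested, and 3 were higher and 4 were lower in CTSD than in AGEs cells (median 0.02). That is 30.4% of the list, near the 30.7% of all tested genes. Pdhx, the E3-binding subunit of the pyruvate dehydrogenase complex, rested on only 12 to 47 fragments per library. It averaged 1.88 ± 0.449 FPKM in CTSD cells, against 4.75 ± 0.574 FPKM in AGEs cells (adjusted p = 0.00103). Dld, the dihydrolipoamide dehydrogenase of the complex, averaged 34.2 ± 2.53 FPKM in CTSD cells, against 51.9 ± 11.8 FPKM in AGEs cells (-0.57, adjusted p = 0.00955). Pdk2, a kinase that switches the complex off, averaged 74.3 ± 1.09 FPKM in CTSD cells, against 49.4 ± 3.01 FPKM in AGEs cells (0.58, adjusted p = 8.87e-05). Pck2, the mitochondrial enzyme that makes phosphoenolpyruvate, was higher by 0.52 (adjusted p = 0.000841). This list was chosen with earlier results of these data known. Of it 4 were higher and 4 lower in AGEs against BSA cells (median 0.08), 34.8% against 15% of all tested genes. Pck2 was lower there with a log2 difference of -0.78 (adjusted p = 0.000316), as was Gpt2, an alanine aminotransferase, at -0.54 (0.00883), while Pdk1, another pyruvate dehydrogenase kinase, was higher by 0.51 (0.00682). Pdp1, the phosphatase that opposes these kinases, was at -0.57 (0.0347), lost without AGEs library 1 (0.0677) or 2 (0.11) and without BSA library 1 (0.115) or 2 (0.0821). The Pdp1 call was also lost with no filter (0.063), with quantile scaling (0.0807) and with only the 2 groups compared (0.0525).

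Of 16 tested regulators of glycolytic genes, 5 were higher and 1 was lower in CTSD than in AGEs cells (median 0.06). That is 37.5% of them, against 30.7% of all tested genes. Mtor, a growth kinase, was higher by 0.42 (adjusted p = 0.00966) and Myc, a transcription factor, by 0.35 (0.0043). Egln2, a prolyl hydroxylase that marks hypoxia-inducible factors for degradation, was higher by 0.37 (0.0191), a call lost without CTSD library 2 (0.0685) or 3 (0.0583) or AGEs library 1 (0.0715). Sp1, which binds GC boxes, was lower with a log2 difference of -0.37 (0.0082). The hypoxia-inducible factor gene Hif1a, at -0.24, did not pass (0.0899), but did with median-of-ratios (0.0374) and quantile scaling (0.0406). It was lower in CTSD than in BSA cells, with a log2 difference of -0.41 (0.0106). Arnt, also on this list, was higher in CTSD than in AGEs cells by 0.24 (0.019). Epas1 was listed at 0 in all libraries, where no level can be read. The regulators were chosen with earlier results of these data known. In AGEs against BSA cells 4 of them were higher and 5 lower (median -0.10), 56.2% against 15% of all tested genes. Txnip, which restrains glucose uptake, averaged 10.1 ± 1.27 FPKM in AGEs cells, against 3.54 ± 0.364 FPKM in BSA cells (log2 difference 1.28, adjusted p = 0.000242). Egln1, another prolyl hydroxylase, was higher by 0.63 (0.00125) and Mtor lower with a log2 difference of -0.54 (adjusted p = 0.00602). Mlxip, a glucose-sensing transcription factor, was at -0.57 (0.0452), a call lost with the replicate block (0.0616) and with median-of-ratios scaling (0.0575). It was also lost with no filter (0.0735), with quantile scaling (0.089) and with only the 2 groups compared (0.0664). Leaving out any of 6 libraries lost it too (CTSD 1 and 2, AGEs 1 and 2, BSA 1 and 3, with adjusted p up to 0.144). Myc was lower in AGEs than in BSA cells, with a log2 difference of -0.41 (0.00469), as was Max at -0.37 (0.00234). Sp1 was higher there by 0.33 (0.0293), a call lost without AGEs library 1 or 2 or BSA library 1, 2 or 3 (up to 0.0795). Between CTSD and BSA cells Myc (-0.06, adjusted p = 0.546) and Sp1 (-0.04, 0.744) did not pass, while Max was lower at -0.41 (0.000565).

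**Figure D4:**
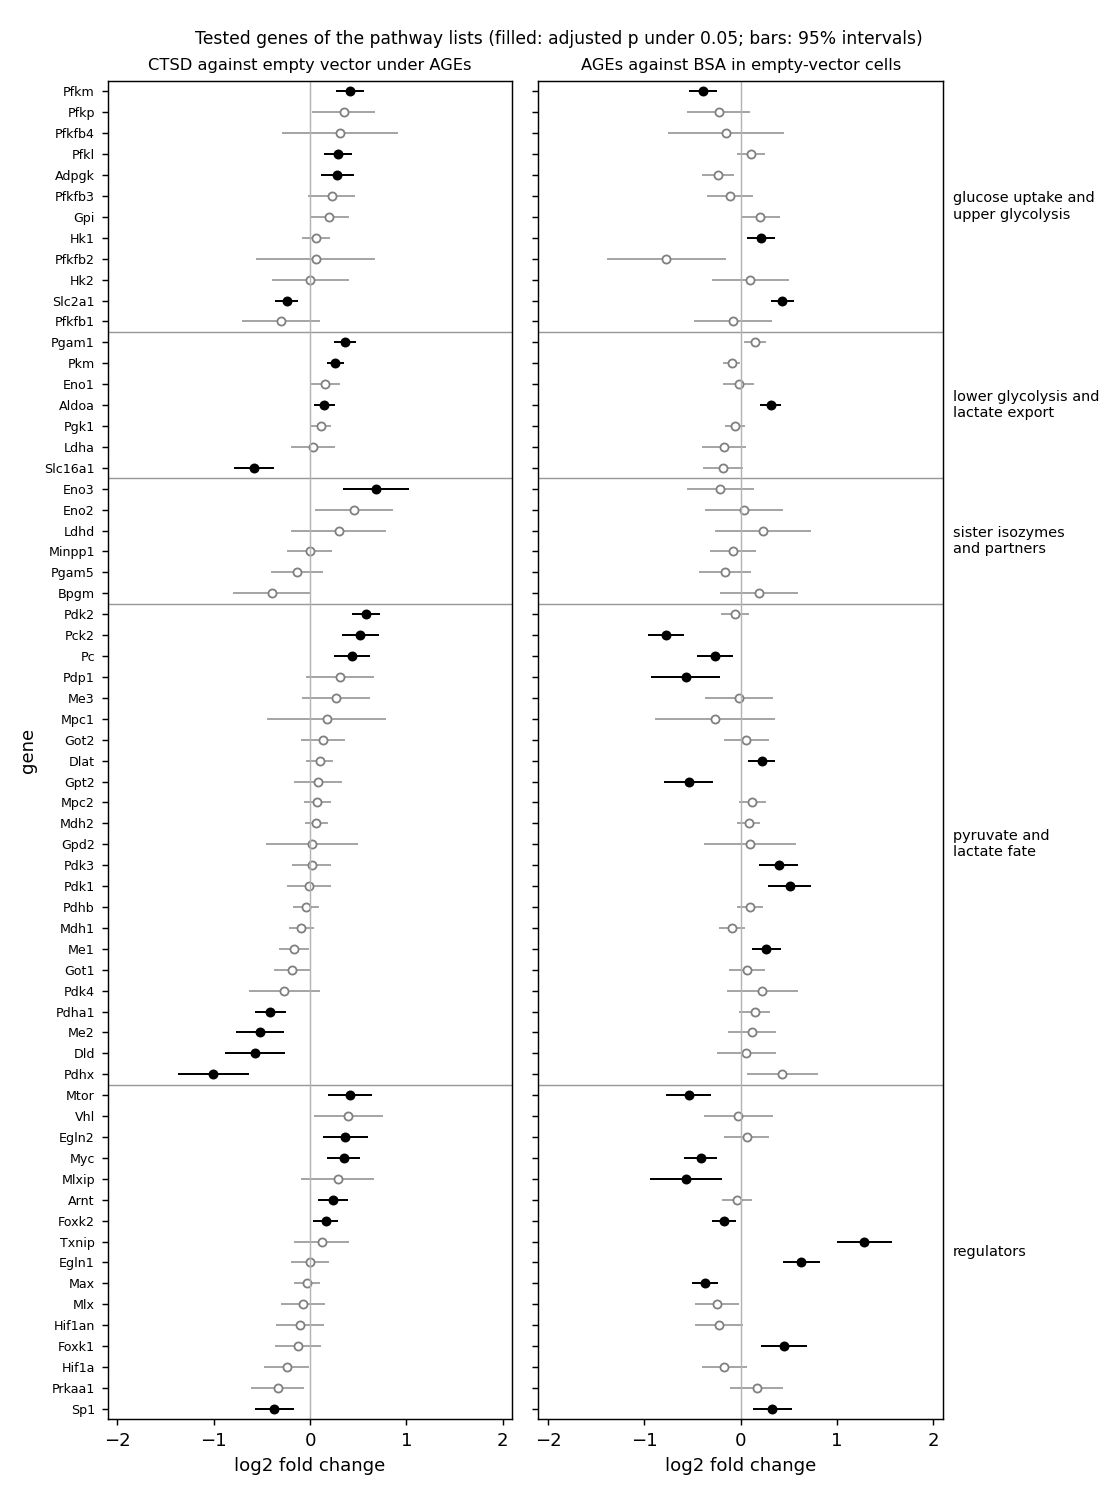
Log2 fold changes with 95% intervals for the tested genes of 5 lists (rows), for CTSD against AGEs cells on the left and AGEs against BSA cells on the right; filled points have an adjusted p under 0.05. On the left Slc2a1 and Slc16a1 are the filled points below 0 among the glycolysis genes.

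By Pearson correlation of log2(FPKM + 1) over the 9 libraries, given as a description because the points share libraries and groups, the genes most like Aldoa were Eif4h (r = 0.985), AABR07054189.1 (0.984) and Bap1 (0.982). Those most like Pgam1 were Klhdc3 (0.984), Dusp7 (0.983) and Spindoc (0.983). Those most like Pkm were Gabarap (0.983), Kif3c (0.982) and Mapk3 (0.980). Those most like Slc16a1 were Fbxo33 (0.990), Hnrnpdl (0.985) and Dhx15 (0.981). No other member, and none of their copies, was among these 12 genes.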

How the data were processed

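RNA was measured in 9 libraries, 3 each of CTSD, AGEs and BSA cells, grouped by the treatment label. Per the labels' protocols, mRNA was captured on poly-T beads, made into libraries with a NEBNext Ultra kit and read as 150-base pairs on an Illumina NovaSeq. The authors deposited 1 table of FPKM values. Aligner, counting tool and annotation: not given in the sources used here. Per the submitters' processing notes the build is mm10, a mouse build, while identifiers and positions in the file are those of rat, so positions are printed as deposited, with no build.

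Multiplied by gene length, the FPKM values of a library are whole multiples of 1 step, which gave the fragments of each gene. Depending on the library, 99.48% to 99.71% of values below 200 fragments were whole to within 0.1. A gene of 1 kilobase with 3 fragments had 0.561 to 0.668 FPKM, and this covers counting error only.

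The 8532 genes that reached 1 FPKM in 3 or more libraries were tested, of 12002 above 0. Group means of log2(FPKM + 1) were fitted over all 9 libraries in limma (version 3.58.1, R version 4.3.3), using a mean-variance trend and two-sided moderated tests. Adjusted p-values are Benjamini-Hochberg values over all tested genes of a comparison, with a threshold of 0.05. CTSD against BSA cells is a further comparison that the study's design text does not list. A log2 difference is on the log2(FPKM + 1) scale and understates changes near 1 FPKM. Folds and ratios are of mean FPKM. The model was tested on simulated data. Tables used python 3.11.15, numpy 2.4.6 and pandas 2.3.3, and figures matplotlib 3.10.9.

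AGEs and BSA libraries that share a replicate number in the labels had residuals correlated at 0.14, 0.14 and 0.15. No correlation was computed between libraries with different numbers, so these values cannot show whether the numbers pair libraries. A replicate block was fitted as an alternative only. Other alternatives were no filter, a filter at a mean FPKM of 5, a pseudocount of 0.1, median-of-ratios and quantile scaling, only the 2 groups compared, voom on recovered fragments, and leaving out each library. Summing each member with its copies was chosen after seeing the data.

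The members and lists were chosen with earlier results of these data known. Named are all members, their copies and, from each list, up to 4 genes with the largest change among those that passed in a comparison. Max, Hif1a, Arnt, Epas1 and further values of Myc and Sp1 were added because of the motifs searched. Likeness is given for members that passed in at least 1 comparison. Of the lists, genes are described for CTSD against AGEs and AGEs against BSA cells, and Slc2a1, Myc, Sp1, Max and Hif1a also for CTSD against BSA cells. For smooth muscle the counts and 2 genes are given.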

Additional observations from a re-analysis of the deposited data

How the results depend on the processing

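No member that passed changed direction in any alternative. The Pkm, Pgam1 and Slc16a1 calls for CTSD against AGEs cells the Aldoa call for AGEs against BSA cells and the 4 calls for CTSD against BSA cells held in all alternatives run on them. For AGEs against BSA cells, the number of members passing was 2 in place of 1 with a mean of at least 5 FPKM, with median-of-ratios and with quantile scaling. The log2 difference of Pgam1 then passed at 0.15 with the mean filter (adjusted p = 0.045) and at 0.21 with median-of-ratios scaling (0.0156), that of Pgk1 at -0.13 with quantile scaling (0.0365), and that of Pkm at -0.11 when summed with copies (0.0463). For CTSD against AGEs cells, Aldoa missed the threshold at 0.15 with no filter (0.0552) and at 0.086 with median-of-ratios scaling (0.249). Pgk1 passed at 0.13 with quantile scaling (0.0227) and at 0.12 with voom (0.013), and Eno1 at 0.16 with voom (0.0492). The cause was not tested.

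With 1 library left out, the number of genes passing for AGEs against BSA cells ranged from 760 to 1605, against 1277 with all. It was 760 without AGEs library 1, 837 without AGEs library 2, and 806, 837 and 804 without BSA library 1, 2 and 3, with fewer samples in the fit, and 1605 without AGEs library 3. Members passing ranged from 1 to 2 for AGEs against BSA cells and from 3 to 4 for CTSD against AGEs cells. The log2 difference of Pgam1 ranged from 0.13 to 0.17 for AGEs against BSA cells, and for CTSD against AGEs cells that of Aldoa from 0.11 to 0.18 and that of Pgk1 from 0.068 to 0.15.

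With the replicate block 1213 genes passed for AGEs against BSA cells and 2581 for CTSD against AGEs cells, and no member's call changed. In the CTSD comparison same-numbered libraries correlated at 0.08, -0.03 and 0.07, and whether their numbers pair them was not tested. Of the members that missed the threshold, Ldha had the fewest fragments, and its 95% interval between CTSD and AGEs cells reaches from -0.18 to 0.25 (log2).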
